A study of Mus musculus with 36 samples.

Results

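The 47 genes described here are secreted proteoglycans and glycoproteins of the extracellular matrix, with the syndecans, glypicans and dystroglycan (Dag1) that hold matrix at the cell surface. They were chosen by name as a list, with earlier results of these data known. All 47 of 47 were found once among the 55487 genes of the count table. The genes were read in 7 roles. These were the lecticans with their link protein (5 genes), the tenascins and fibronectin (4), the basement membrane and its receptor (5), the small leucine-rich proteoglycans (7), the elastic fibre and fibulins (8), the matricellular proteins and matrilins (8), and the syndecans and glypicans (10).

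A proteoglycan is a core protein that carries long sulfated sugar chains, and chondroitin sulfate chains on lecticans such as neurocan are known to slow growing axons. In central nervous tissue the lecticans bind hyaluronan and tenascins and form a loose matrix around axons, nodes and synapses. Fibrous matrix with collagen, decorin and fibronectin lies instead in meninges, vessel walls and sclera, and laminin-rich basement membranes lie where astrocyte endfeet meet vessels and meninges, with dystroglycan among their receptors.

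Bulk RNA-seq was read in 36 libraries of C57BL/6 mice aged 2 to 4 months, 12 each from the unmyelinated optic nerve (UON, the optic nerve head region), the myelinated optic nerve (MON) and the whole retina. The 6 groups of each tissue were bilaterally naïve mice, mice at 3 D (days) and 2 W (weeks) after crush of 1 optic nerve, and mice that had microbeads injected in the anterior chamber of 1 eye 3 D, 2 W or 6 W earlier to raise eye pressure (glaucoma groups). Each group held 1 library from a pool of female mice and 1 from a pool of male mice (n = 2 pools), so the pools of a group also differ in sex. Sex was a term in every main fit. The short stretch between UON and MON was discarded at dissection, and all 3 regions were taken from each mouse. Values are given below for the female pool first and then the male pool.

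The libraries held 16158723 to 78054205 estimated counts, and the naïve MON pools were near opposite ends of this range (78054205 and 17757595). With 2 pools a group, p-values rest on the spread left after the terms of the fit. That spread was estimated over all libraries of the fit and shared in part across genes. The summed level of 8 oligodendrocyte markers was 64506 and 44796 CPM (estimated counts scaled to library size) in naïve MON, 8129 and 6319.6 in naïve UON and 50.6 and 48.9 in naïve retina, and 8 photoreceptor markers summed to 64364 and 64012 CPM in naïve retina against 58.6 and 25.1 in naïve UON, so the markers followed the tissue labels. Several libraries stood apart within their group in other cell types, and some of these are named beside members they may touch. In bulk samples, fewer cells of a type and less RNA per cell cannot be told apart.

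The level of each member relative to the others was read from FPKM, which is scaled to gene length. Sparc, a small matricellular protein that binds collagen, was the highest member in all 3 naïve tissues, at 3229 and 3837 FPKM in UON, 947 and 925 in MON and 143 and 119 in retina. Its relative Sparcl1 (hevin), which astrocytes secrete at synapses, came next in MON (351 and 244 FPKM) and retina (64.2 and 63.9) and stood lower in UON (209.7 and 227). The next places after Sparc in UON were held by small leucine-rich proteoglycans, which bind collagen fibrils. They were Prelp (259 and 276 FPKM), Fmod (fibromodulin, 219 and 311) and Dcn (decorin, 247 and 246). The pools of Fmod lie on both sides of the others, so its place among them was not resolved. Of these 3, Prelp was the highest in MON (84.3 and 59.7 FPKM) and in retina (7.09 and 4.83 FPKM). The syndecan Sdc4 followed in MON and in retina, at 105 and 111 and at 29.2 and 28.8 FPKM, and Bcan (brevican, the main lectican of mature brain) came after it in MON at 107 and 91 FPKM. At the low end, Hapln1, the link protein of perineuronal nets, was listed at 0 in both naïve UON pools, and Acan (aggrecan) reached at most 0.129 FPKM in any naïve library.

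**Figure D1:**
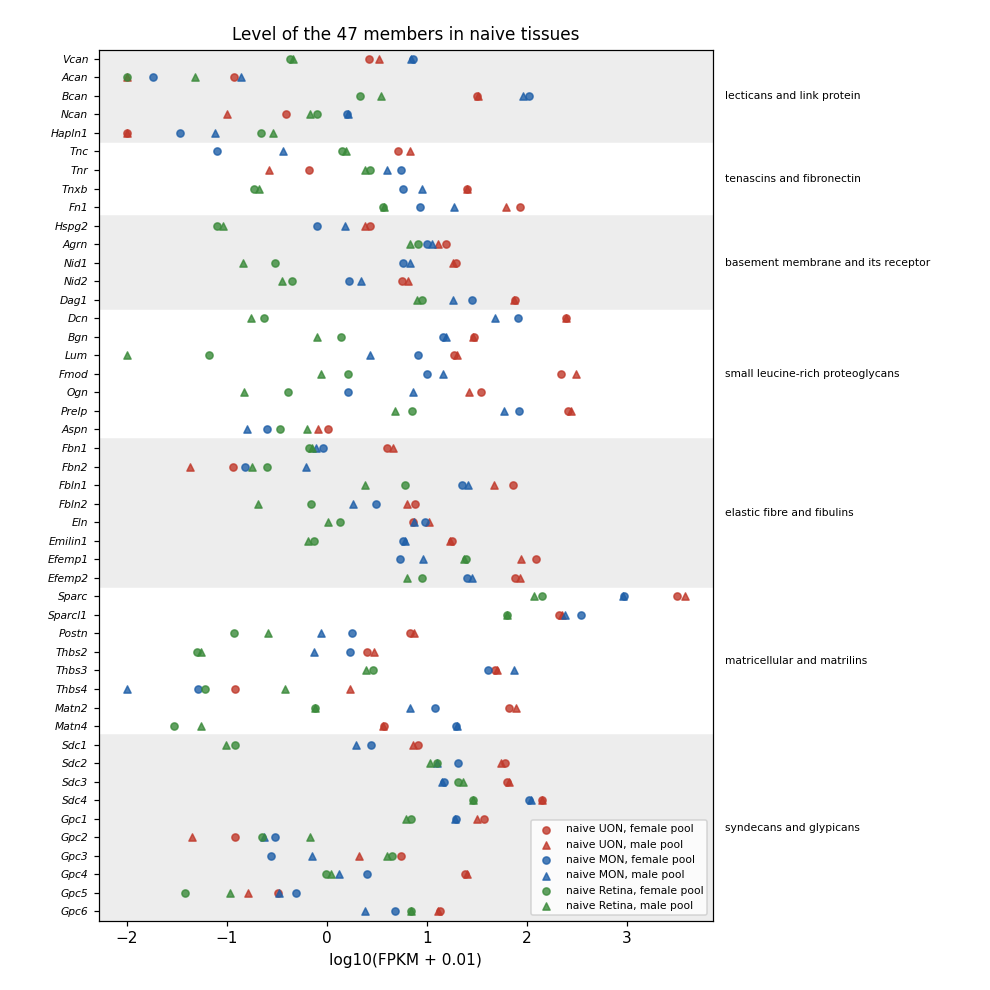
Level of each of the 47 members in the naïve tissues, as log10(FPKM + 0.01) on the horizontal axis, with genes grouped by role. Circles are female pools and triangles male pools, in red for UON, blue for MON and green for retina. Most members lie furthest right in UON and furthest left in retina. Bcan, Vcan, Ncan, Tnr, Matn4 and Sparcl1 are among those highest in MON.

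Naïve UON was compared with naïve MON to ask how the matrix differs between the optic nerve head and the nerve behind it. Of the 47 members, 25 were higher in UON (4.83% of all 23685 genes tested were) and 4 were lower (4.8%). The median log2 fold change of the members was 1.61, against -0.06 over all genes. Since the list was made with earlier results of these data known, this excess is descriptive and not an independent test. Calls here and below are by edgeR's quasi-likelihood test, at an adjusted p under 0.05, and also need a log2 fold change above 1 or below -1. The 4 members that were lower in UON were the lecticans Bcan and Ncan, their crosslinker Tnr (tenascin-R) and the matrilin Matn4. DESeq2 also called Fbln1 higher in UON (log2 fold change 1.31, SE 0.39, adjusted p = 0.00669). It called Hapln1 lower on low counts (log2 fold change -6.24, SE 2.32, adjusted p = 0.0374).

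Tnc (tenascin-C, ENSMUSG00000028364, chr4:63959785-64047015 in GRCm38), a glycoprotein known from developing and wounded tissue and from astrocytes of the optic nerve head, had the largest difference among the calls. Its values were 45.2 and 61.5 CPM in UON and 0.7 and 3.13 CPM in MON (log2 fold change 5.02, SE 0.56, adjusted p = 0.00299). The groups lie far apart. Another member of the family had the opposite order. Tnr, the tenascin of oligodendrocytes and nodes, stood at 6.99 and 4.06 CPM in UON and 69.4 and 60.3 in MON (log2 fold change -3.62, SE 0.29, adjusted p = 0.00139). Tnxb, the tenascin of connective tissue, was at 407 and 397 CPM in UON and 104 and 146 in MON. Fn1 (fibronectin) was at 814 and 606 CPM in UON and 86.7 and 140.02 in MON. Both were called higher in UON, with log2 fold changes of 1.67 and 2.62.

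Among the lecticans, Ncan (neurocan) was at 3.43 and 0.86 CPM in UON and 16 and 14.3 in MON (log2 fold change -3.06, SE 0.60, adjusted p = 0.0217). Bcan was higher in level but differed less, with 123 and 133 CPM in UON and 456 and 333 in MON (log2 fold change -1.66). Vcan (versican) did not pass the test, at 32 and 28.4 CPM in UON and 59.3 and 45.1 in MON (log2 fold change -0.81, adjusted p = 0.0674). Its UON pools still lay below both MON pools. Summed markers of oligodendrocytes and of their precursors were also lower in UON, the first by the values above and the second at 109 and 76.7 CPM against 771 and 649.8 in MON. All 8 oligodendrocyte markers were called lower in UON, as were 5 of 6 precursor markers, and their part in the lower lecticans, Tnr and Matn4 was not tested.

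Of the small leucine-rich proteoglycans, 4 of 7 were called higher in UON and none lower. Fmod led with 854 and 1279 CPM in UON against 43.9 and 55.3 in MON (log2 fold change 4.38, SE 0.42, adjusted p = 0.00194). Prelp, Dcn and Ogn (osteoglycin) were the other three, with log2 fold changes of 1.90, 1.87 and 2.86. Bgn (biglycan) had an adjusted p of 0.0353 but a log2 fold change of 0.90, below the limit. Lum (lumican) was at 57.3 and 65.5 CPM in UON and 28.2 and 8.12 in MON, and it did not pass. Aspn (asporin), at 2.98 and 2.51 CPM in UON and 0.796 and 0.481 in MON, did not pass either.

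In the basement membrane group, 4 of 5 were higher in UON, namely Hspg2 (perlecan), Nid1 and Nid2 (nidogens, which bridge laminin and collagen IV) and the receptor Dag1, with log2 fold changes from 1.56 (Dag1) to 1.92 (Nid1). Dag1 was at 466 and 457 CPM in UON and 199.96 and 115 in MON. Agrn (agrin) was the exception, with 130.1 and 118 CPM in UON and 94.5 and 101 in MON (log2 fold change 0.30, SE 0.20).

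Among elastic fibre genes 5 of 8 were called higher in UON. Efemp1 (fibulin-3) was the largest of them, at 310.2 and 235 CPM in UON and 14.9 and 21.8 in MON (log2 fold change 3.86, SE 0.31, adjusted p = 0.00141). The fibrillin Fbn1, which forms the microfibrils of elastic fibres, was at 55 and 69.1 CPM in UON and 12.6 and 9.26 in MON, and Fbln2, Emilin1 and Efemp2 were the remaining calls. Eln (elastin) itself was at 32.6 and 51.1 CPM in UON and 50.1 and 32.8 in MON, so its pools overlapped, and its log2 fold change rounded to 0 (SE 0.34).

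Of the matricellular genes and matrilins, Matn2, Postn (periostin) and Sparc were higher in UON and Matn4 lower. The matrilins therefore split, with Matn2 at 286 and 367 CPM in UON and 59.8 and 29.5 in MON and Matn4 at 11 and 11.2 CPM in UON and 66.9 and 64.7 in MON. At the cell surface, 6 of 10 syndecans and glypicans were higher in UON, led by Gpc4, a glypican that astrocytes release. Its values were 79.3 and 88.4 CPM in UON and 9.39 and 4.33 in MON (log2 fold change 3.61, SE 0.37, adjusted p = 0.00236). Sdc1, Sdc2 and Sdc3 were called with log2 fold changes of 1.61, 1.78 and 2.08, and Gpc3 and Gpc6 with 2.90 and 1.39. Sdc4 (441 and 463 CPM against 361 and 335) and Gpc1 were not called.

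**Figure D2:**
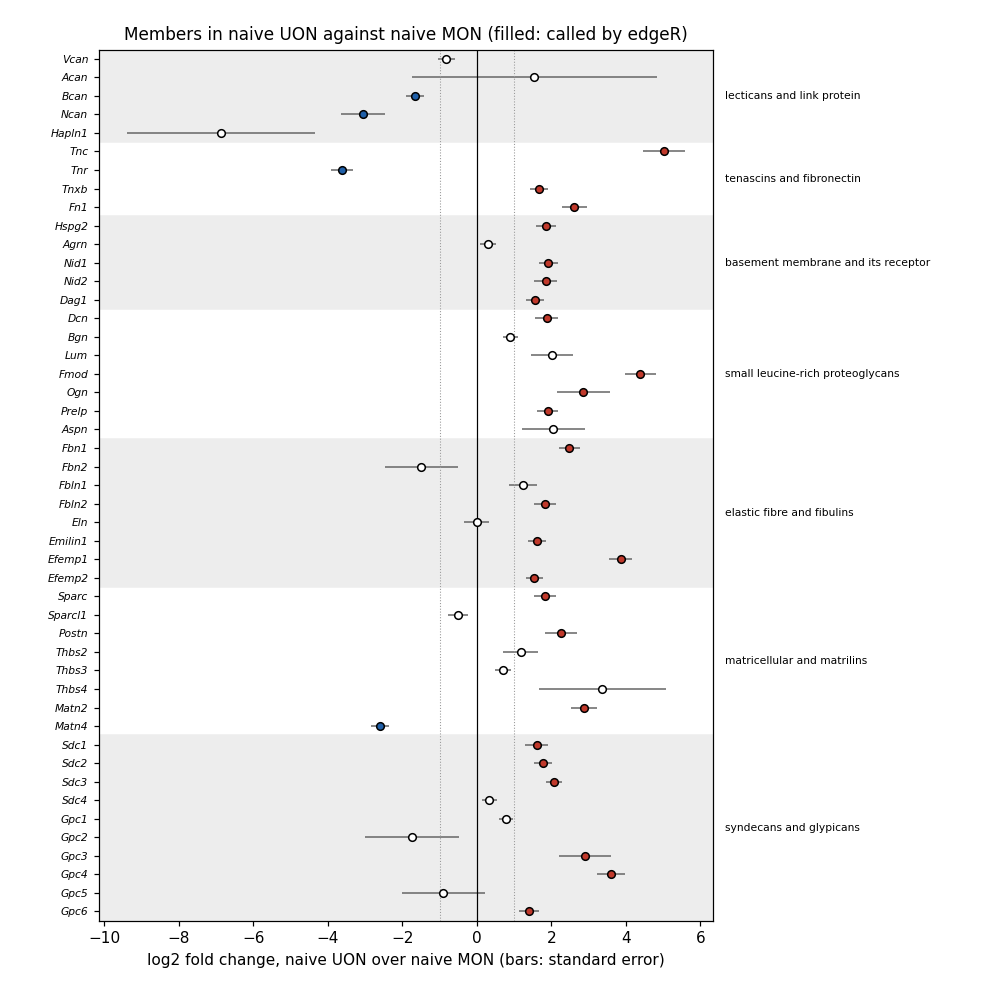
Log2 fold change of each member in naïve UON over naïve MON, with bars of 1 standard error derived from the edgeR test. Filled points were called (25 in red, higher in UON; 4 in blue, higher in MON) and dotted lines mark the limit of 1. Tnc at 5.02 and Tnr at -3.62 bound the called range.

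These calls did not all rest on every pool. Sdc1 lost its call without any of 3 of the 4 pools (edgeR adjusted p = 0.0812 without the male MON pool, 0.0515 without the female UON pool and 0.16 without the male UON pool). Gpc3 lost it without the female pool of either tissue (0.113 for MON and 0.0901 for UON). Postn and Gpc6 lost it without the male pool of either, with 0.0843 and 0.066 for MON and 0.171 and 0.0906 for UON. Ncan was lost without the male MON pool (adjusted p = 0.0778) and Nid2, Fbln2 and Sparc without the male UON pool (0.0871, 0.0777 and 0.141). The other 21 calls remained in all 4 refits. With all 36 libraries in 1 fit, 20 calls remained, and Ncan, Fn1, Nid1, Dcn, Ogn, Fbln2, Postn, Sdc1 and Gpc3 were lost, with an adjusted p of 0.0584 for Fn1 and 0.0528 for Nid1, and up to 0.25 (Gpc3). The summed level of 10 fibroblast markers of sclera and meninges was 2583 and 2607 CPM in UON and 355 and 291 in MON, and 7 of the 10 were called higher in UON. That shift moved with the small leucine-rich proteoglycans, Fn1, Tnxb, Postn and the fibulins, and its part in them was not tested. The 10 astrocyte markers summed to 24095 and 28143 CPM in UON and 19176 and 13649 in MON, with 3 called higher and 1 lower.

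Against the retina, 36 of 47 members were higher in naïve UON (18.2% of all genes) and 1 was lower (13.5%), and 32 were higher in naïve MON (16.7%) and 3 lower (10.9%). The median log2 fold change of the members was 3.92 for UON and 2.96 for MON, against -0.17 and 0.00 over all genes. Dcn was the largest for UON, at 541 and 569.7 CPM in UON, 199 and 106 in MON and 0.349 and 0.442 in retina (log2 fold change 10.42, SE 0.45, adjusted p = 2.49e-05 for UON over retina). Matn4, a matrilin of central nervous tissue, was the largest for MON, at 66.9 and 64.7 CPM against 0.0776 and 0.111 in retina (log2 fold change 9.42, SE 0.37, adjusted p = 2.54e-05). Both genes were near 0 in retina. After Dcn, UON over retina was led by Lum (log2 fold change 9.90), Fmod (8.10), Nid1 (7.42), Tnxb (7.35) and Ogn (7.14), and after Matn4, MON over retina by Dcn (8.54), Lum (7.89), Bcan (6.01), Tnxb (5.69) and Nid1 (5.50). The Lum folds set nerve against 0.136 and 0 CPM in retina and depend on how a count of 0 is handled. Fibroblast markers, at 9.24 and 8.58 CPM in retina, moved with this order. So did astrocyte markers (1702 and 1594 CPM in retina) and oligodendrocyte precursor markers (7.55 and 6.10 CPM in retina). Endothelium markers did not, at 178 and 184 CPM in retina, 162 and 215 in UON and 154 and 139 in MON. The part of these cell types in the order was not tested.

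The genes that did not follow this order were few. Tnr was the 1 member that edgeR called lower in UON than in retina, where it was at 29.3 and 27.8 CPM. Its log2 fold change was -2.44 (SE 0.28, adjusted p = 0.000533), so its order was MON, retina, UON. DESeq2 also called Hapln1 lower in UON than in retina (log2 fold change -7.73, SE 2.30, adjusted p = 0.00258), on low counts. Tnc, Efemp1 and Gpc3 were lower in MON than in retina. Tnc stood at 9.67 and 10.4 CPM in retina (log2 fold change -2.69 for MON over retina, adjusted p = 0.00749), between UON and MON. Efemp1 stood at 47.9 and 42.9 CPM in retina, also between them, and Gpc3 at 9.61 and 8.38. Ncan was at 5.45 and 4.58 CPM in retina and was called by edgeR in neither nerve comparison (adjusted p = 0.0915 for UON and 0.0673 for MON), while DESeq2 called it lower in UON (log2 fold change -1.47, SE 0.60, adjusted p = 0.0349) and higher in MON (log2 fold change 1.53, SE 0.59, adjusted p = 0.0263). For MON over retina, the calls of Gpc3 and Gpc4 were lost without the female MON pool (edgeR adjusted p = 0.0801 and 0.127), and Efemp1 then had a log2 fold change of -0.90. Tnr was lost without the male MON pool (0.0506) or the female retina pool (0.0968), and Gpc4 without the latter as well (0.129). With all 36 libraries in 1 fit, the calls of Tnc (adjusted p = 0.132), Efemp1 (0.176), Gpc3 (0.173) and Tnr (0.0979) for MON over retina were lost, as was Tnc for UON over retina (0.106).

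The transcript table gave a second readout, in which Vcan and Agrn differed by region in form. Versican carries its chondroitin sulfate chains in stretches coded by 2 large exons, at chr13:89702918-89705797 (2880 bases) and chr13:89688285-89693501 (5217 bases) on the minus strand of GRCm38. Form V0 keeps both, V1 keeps the second and V2 keeps the first, and V2 is known as the form of mature white matter. Agrin that holds the 2 small Z exons, at chr4:156168546-156168569 (24 bases) and chr4:156167777-156167809 (33 bases), is the neural form that clusters acetylcholine receptors. The splice junctions that tell the forms apart are shown from the GENCODE M21 transcripts, 5′ to 3′ on the coding strand. In the Vcan lines, capitals mark the exon after the junction. In the Agrn lines, capitals mark the Z exons, or the exon that follows where they are skipped.
Vcan V0, first large exon to second: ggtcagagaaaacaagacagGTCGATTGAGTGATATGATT
Vcan V1, preceding exon to second large exon: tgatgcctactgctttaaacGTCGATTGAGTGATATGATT
Vcan V2, first large exon to following exon: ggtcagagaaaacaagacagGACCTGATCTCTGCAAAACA
Agrn with both Z exons: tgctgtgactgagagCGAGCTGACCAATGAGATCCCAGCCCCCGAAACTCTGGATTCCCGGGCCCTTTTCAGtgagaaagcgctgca
Agrn without Z exons: tgctgtgactgagagTGAGAAAGCGCTGCA

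Shares were computed over the long coding transcripts of each gene (3 for Vcan, 4 for Agrn), with each estimated count divided by transcript length. Counts on other transcripts were left out. For Agrn the long forms held 723 and 642 estimated counts in naïve retina, fewer than were left out. They held 5638 and 4798 in naïve UON, most of the gene's counts. In naïve MON they held 5730 and 89, most in the female pool and few in the male. The Z exons were held by 51.2 to 91.2% of these long Agrn transcripts in the 12 retina libraries (median 82.8%). In nerve they were at or near 0, from 0 to 2.5% in the 12 UON libraries and 0 to 2.18% in the 12 MON libraries, so no nerve library overlapped a retina library. The naïve pools had 87 and 79.5% in retina, 0 and 0% in UON and 0 and 2.18% in MON, although the gene was lower in retina (35.4 and 31.6 CPM). The V2 form of Vcan took 43.2 to 91.7% in MON (median 72.8%) and 0 to 62.2% in UON (median 22.7%), where V1 had a median of 42.8% against 8% in MON. Retina was assigned to V0 in all 12 libraries, on 42 to 177 estimated counts each. UON shares swung between pools of one group, with V2 at 0 and 56.9% in the naïve UON pools, so the UON values are not precise. The 2 nerve libraries with a Z share above 0 had only 78 and 89 estimated counts on the long forms. StringTie assigns reads to forms from coverage, and short exons or a few junctions carry the distinction, so the shares are estimates with no test.

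**Figure D3:**
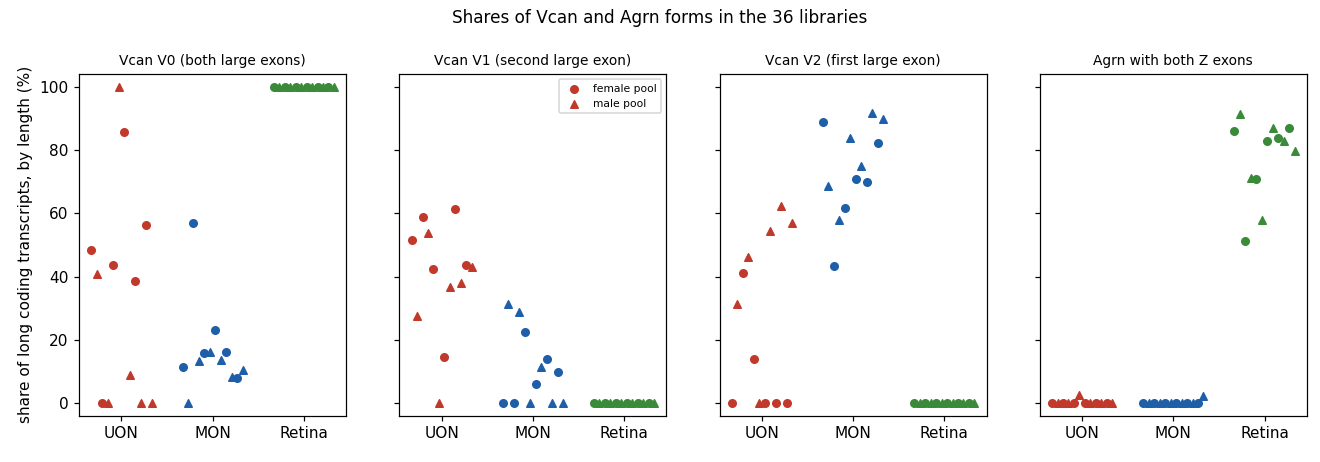
Share of each Vcan and Agrn form in percent of the long coding transcripts of the gene, for the 36 libraries by tissue (circles, female pools; triangles, male pools). The Agrn panel has retina at 51.2 to 91.2% and both nerve regions at 2.5% or less, and the V2 panel has MON above most UON libraries and retina at 0.

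After crush, edgeR called members in MON and none in UON or retina, and the test of the difference between MON and UON is given after the values. At 3 D in MON, 8 of 46 tested members were higher than naïve (3.61% of all genes) and 1 was lower (0.655%). At 2 W, 5 of 46 were higher (2.13%) and 0 were lower (0.595%). Emilin1, Fn1, Fbln2, Matn2 and Nid2 were called at both times, and Tnc, Ncan, Sdc1 and the decrease of Fbln1 at 3 D. DESeq2 called 13 at 3 D (12.3% of all genes in either direction) and 16 at 2 W (8.93%). Of the 13, 4 were lower, namely Fbln1, Sparcl1, Bcan and Ogn. Sparcl1 was at 389 and 165 CPM at 3 D against 1344 and 822 in naïve MON (log2 fold change -1.96, SE 0.38, adjusted p = 1.11e-05 by DESeq2, adjusted p = 0.0597 by edgeR), with both pools below both naïve pools. The median log2 fold change of the members was 0.29 at 3 D and 1.06 at 2 W, against 0.00 and 0.05 over all genes, and at 2 W 39 of 46 were above 0.

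Tnc had the largest change. Its values in MON were 0.7 and 3.13 CPM in naïve, 176 and 251 at 3 D and 31.3 and 7.91 at 2 W. Both pools at 3 D exceeded the naïve UON pools, and both at 2 W were lower than at 3 D. The change passed at 3 D (log2 fold change 7.03, SE 0.99, adjusted p = 0.015), and at 2 W it did not (3.59, adjusted p = 0.0994). Ncan, the lectican that astrocytes are known to make after injury, was at 16 and 14.3 CPM in naïve MON, 106 and 163 at 3 D and 58.7 and 18.5 at 2 W (log2 fold change 3.28, SE 0.53, adjusted p = 0.0207 at 3 D). The other lecticans were not called by edgeR. Bcan lay below naïve in both pools at 3 D (198 and 135 CPM, adjusted p = 0.0698 by edgeR), where DESeq2 called it lower (log2 fold change -1.20, SE 0.30, adjusted p = 0.00122), and Vcan stood at 56.5 and 59.3 CPM.

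Fn1, which is laid down early in wounds, was at 683 and 971 CPM at 3 D and 707 and 423 at 2 W, against 86.7 and 140.02 in naïve MON (log2 fold change 2.95, SE 0.44, adjusted p = 0.0167 at 3 D, and log2 fold change 2.39, SE 0.44, adjusted p = 0.0401 at 2 W). In the elastic fibre group the early and late patterns differed by gene. Fbln2, a fibulin known from basement membranes and vessel walls, was at 13 and 9.08 CPM in naïve MON, 125 and 126 at 3 D (log2 fold change 3.62, SE 0.29, adjusted p = 0.00533) and 35 and 24.4 at 2 W (log2 fold change 1.46, SE 0.27, adjusted p = 0.0415). Emilin1, a glycoprotein of elastic fibres, was at 30.6 and 23.6 CPM, then 111 and 147 (log2 fold change 2.33, SE 0.29, adjusted p = 0.0114), then 84.7 and 92.7 (log2 fold change 1.74, SE 0.28, adjusted p = 0.0338). Fbln1 fell, from 84.2 and 90 CPM to 26.6 and 25.4 at 3 D (log2 fold change -1.65, adjusted p = 0.0363), and stood at 53.5 and 103 at 2 W.

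Nid2 was the member with the largest called change at 2 W. It was at 11.2 and 9.38 CPM in naïve MON, 24 and 32.2 at 3 D and 66.6 and 55.5 at 2 W (log2 fold change 2.61, SE 0.31, adjusted p = 0.0157), so its pools stepped up at each time. Its relative Nid1 did not pass at either time, with 70.6 and 76.8 CPM at 2 W against 48.3 and 28 in naïve MON. Matn2 was at 59.8 and 29.5 CPM in naïve MON, 117 and 109 at 3 D and 151 and 133 at 2 W (log2 fold change 1.77, SE 0.31, adjusted p = 0.037 at 2 W). Sdc1, a syndecan best known from epithelia, was at 12.1 and 7.64 CPM in naïve MON, 28 and 47.5 at 3 D (log2 fold change 1.98, SE 0.39, adjusted p = 0.0365) and 21.4 and 26.3 at 2 W.

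The small leucine-rich proteoglycans gave no edgeR call in MON after crush. At 3 D, DESeq2 called Ogn lower (log2 fold change -1.71, SE 0.55, adjusted p = 0.0186), at 3.04 and 3.77 CPM against 5.83 and 23.3 in naïve MON, where edgeR gave an adjusted p of 0.133. At 2 W their values were high for Fmod (230.3 and 271 CPM against 43.9 and 55.3 in naïve MON, log2 fold change 2.36, adjusted p = 0.0873) and Prelp (600.2 and 905 against 423 and 248), and Dcn overlapped naïve (395 and 188 against 199 and 106). Efemp1 (63.2 and 49.5 CPM at 2 W), Hspg2 (43.7 and 31.1) and Gpc4 (22.6 and 18.2) had adjusted p of 0.0551, 0.0587 and 0.0674, just past the limit. DESeq2 called 11 more members than edgeR at 2 W, among them these 3, Fmod and Prelp, and with Sparcl1 the 1 that was lower (log2 fold change -1.14, SE 0.38, adjusted p = 0.0331 by DESeq2).

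**Figure D4:**
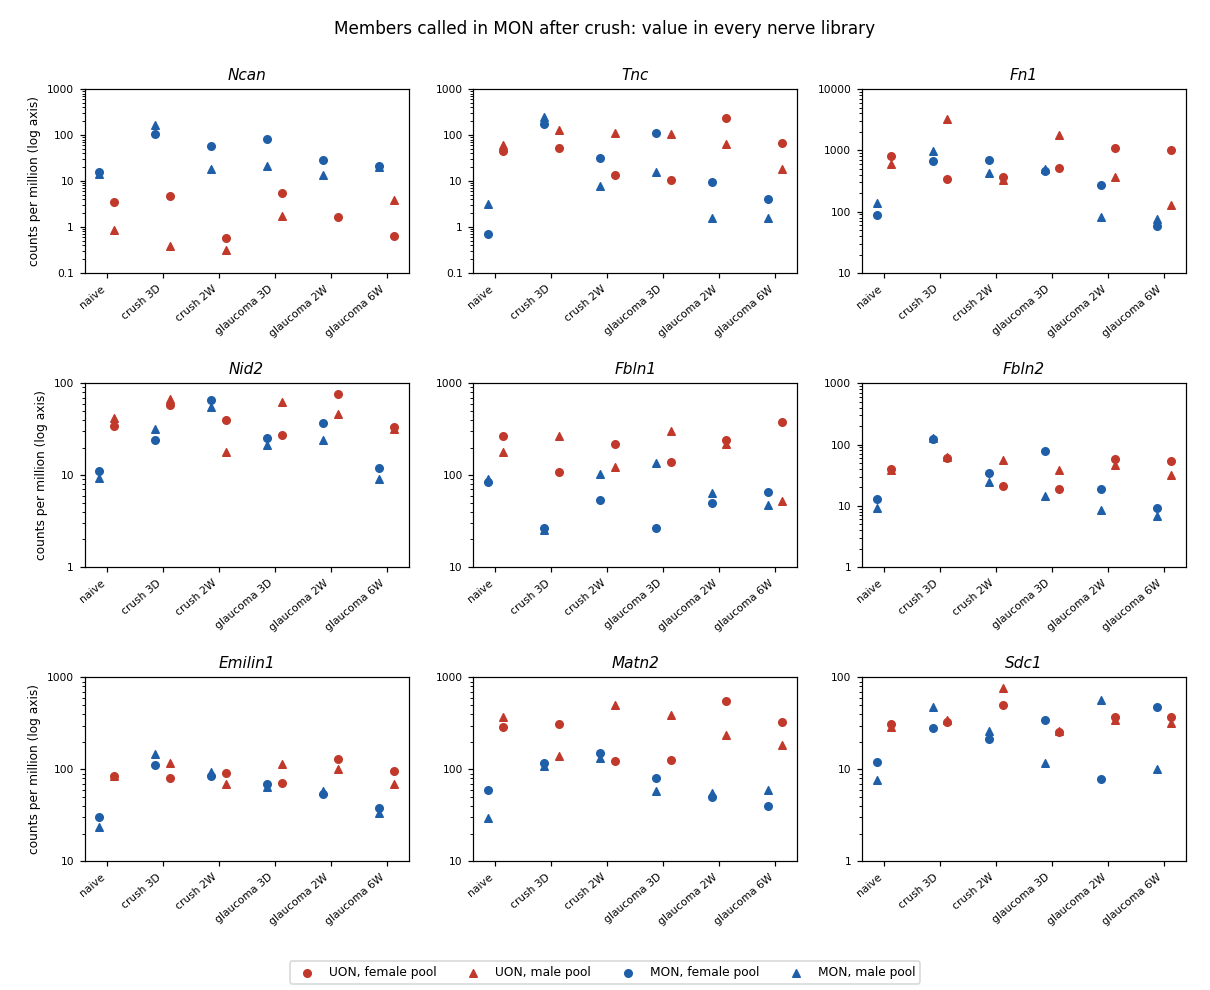
CPM on a log axis of the 9 members called in MON after crush, in every UON (red) and MON (blue) library by group (circles, female pools; triangles, male pools; a value of 0, Ncan in 1 UON pool, is not drawn). For Tnc, Fbln2 and Ncan, both MON pools at 3 D after crush lie above both naïve MON pools, and the 3 D UON pools overlap naïve UON for Tnc and Ncan.

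The calls in MON after crush leaned on the naïve pools. Without the naïve female MON pool, 0 members were called at 3 D or at 2 W, and without the naïve male MON pool 2 and 0 were, with Tnc (adjusted p = 0.023) and Fbln2 (0.0238) the 2 that remained. Without the female naïve pool the smallest adjusted p at 3 D was 0.0567 (Fbln2) and the largest 0.201 (Fbln1). The number called at 3 D rose without the female pool of the crush group and fell without the male, and at 2 W it rose without either. Each of these refits has 1 library in the crush group and no share over all genes beside it. The rises are therefore not results about the members. The calls lost without the male 3 D pool were Nid2, Fbln1, Matn2 and Sdc1. Every log2 fold change of a called member kept its sign in these refits. With all 36 libraries in 1 fit, Nid2, Fbln1, Matn2 and Sdc1 lost their calls at 3 D, and Fn1, Fbln2 and Matn2 at 2 W, with adjusted p from 0.0839 (Nid2) to 0.361 (Fbln1).

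Beside these members, the 8 microglia and macrophage markers summed to 1591 and 2080.2 CPM at 3 D and 3223 and 1752 at 2 W, against 801 and 659 in naïve MON, with 2 of 8 called higher at each time. Oligodendrocyte markers summed to 35274 and 27324 CPM at 3 D and 16767 and 20909.8 at 2 W, against 64506 and 44796 in naïve MON, with 0 and 1 of 8 called lower. Fibroblast markers summed to 435 and 784 CPM at 3 D and 1208 and 773 at 2 W, against 355 and 291 in naïve MON, with 0 of 10 called. The 10 astrocyte markers summed to 14568 and 7619.8 CPM at 3 D and 16058 and 25689.6 at 2 W, against 19176 and 13649 in naïve MON. Their median log2 fold change was -1.45 at 3 D, with Gjb6 the 1 called lower, and 0.55 at 2 W, with 0 called. The 7 endothelium markers summed to 222 and 279 CPM at 3 D against 154 and 139 in naïve MON (median log2 fold change 1.06, 0 called), and of 8 pericyte and smooth muscle markers 1, Acta2, was called higher at 3 D. The part of these cell types in the changes of the members was not tested.

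In UON after crush, edgeR called 0 of 45 members at 3 D (0% of all genes) and 0 of 45 at 2 W (0.0281%). At an unadjusted p under 0.05 there were 1 and 8 members (3.07 and 9.27% of all genes), and DESeq2 called 1 and 3 (1.01 and 2.66% of all genes). The 1 at 3 D was Bcan, at 45.3 and 44.1 CPM against 123 and 133 in naïve UON (log2 fold change -1.51, SE 0.43, adjusted p = 0.0492 by DESeq2, adjusted p = 0.887 by edgeR). The 3 at 2 W were Thbs4, Postn and Sdc3. Sdc3, the main syndecan of neural tissue, was at 222 and 125 CPM against 393 and 426 in naïve UON, and Thbs4 at 0 and 0.33 against 0.448 and 6.54. Postn rested on the male pool (20.7 and 252 CPM), which also held the highest UON values of Dcn (345 and 1732), Lum (48.1 and 329.96) and Eln (32.4 and 339). In that pool the melanocyte and pigment epithelium markers summed to 60.7 CPM against 3.08 in its female counterpart, and oligodendrocyte markers to 1456 against 8026. At 3 D the male pool stood apart in the same way for Fn1 (344 and 3269.6 CPM), Hspg2 (47 and 157) and Thbs2 (9.84 and 119.7), with fibroblast markers at 2470.3 and 5531 CPM. Tnc in UON ranged from 10.6 to 235 CPM over the 12 libraries with no order by group.

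Whether MON and UON responded differently was tested as an interaction. By edgeR 0 of 47 members passed at 3 D (0.012% of all genes) and 0 of 47 at 2 W (0%), with 8 and 19 at an unadjusted p under 0.05 (6.93 and 10.9% of all genes). DESeq2 called 3 at 3 D (1.42%), namely Tnc, Emilin1 and Fbln2. It called 8 at 2 W (3.6%), namely Fn1, Fmod, Nid2, Tnc, Sdc3, Emilin1, Dag1 and Gpc4. In all of these the log2 fold change over naïve was the larger in MON. At 2 W, Fn1 was above naïve in both MON pools and below naïve in both UON pools (374 and 323 CPM against 814 and 606). Its difference in log2 fold change was 3.49 (SE 1.05, adjusted p = 0.261) by edgeR and 3.42 (SE 0.99, adjusted p = 0.0235) by DESeq2. Nid2 and Gpc4 had the smallest edgeR adjusted p among the members at 2 W (0.146 for both). In these fits only sex links the libraries, although UON and MON of a pool came from the same mice. With each pool of mice as a block, edgeR called 0 of 47 at 3 D (0.04% of all genes) and 2 of 47 at 2 W (0.092%), with 9 and 22 at an unadjusted p under 0.05 (6.73 and 10.3% of all genes). The 2 were Nid2 (3.11, SE 0.47, adjusted p = 0.0489) and Fmod (3.26, SE 0.50, adjusted p = 0.0489), each with the larger response in MON, and this block was chosen after seeing the data. In the fit without that block, edgeR called some members when either UON pool of 2 W was left out. Those refits have 1 library in that group and no share over all genes beside them.

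In the retina after crush, edgeR called 0 of 45 members at 3 D (0.0221% of all genes) and 0 of 45 at 2 W (0.313%), with 1 and 5 at an unadjusted p under 0.05 (6.34 and 8.99% of all genes), and DESeq2 called 0 at each time (0.633 and 1.51%). Of the members called in MON, Tnc was at 8.93 and 9.84 CPM at 3 D against 9.67 and 10.4 in naïve retina, and Fn1 at 23.2 and 17 against 16.4 and 15.1. Sdc1 was at 0.0989 and 0.245 CPM against 0.349 and 0.287, with both pools below both naïve pools. Sparcl1 had the smallest p at 2 W, with 113 and 90.7 CPM against 171 and 165 in naïve retina (log2 fold change -0.76, SE 0.12, adjusted p = 0.0863), with both pools below both naïve pools.

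**Figure D5:**
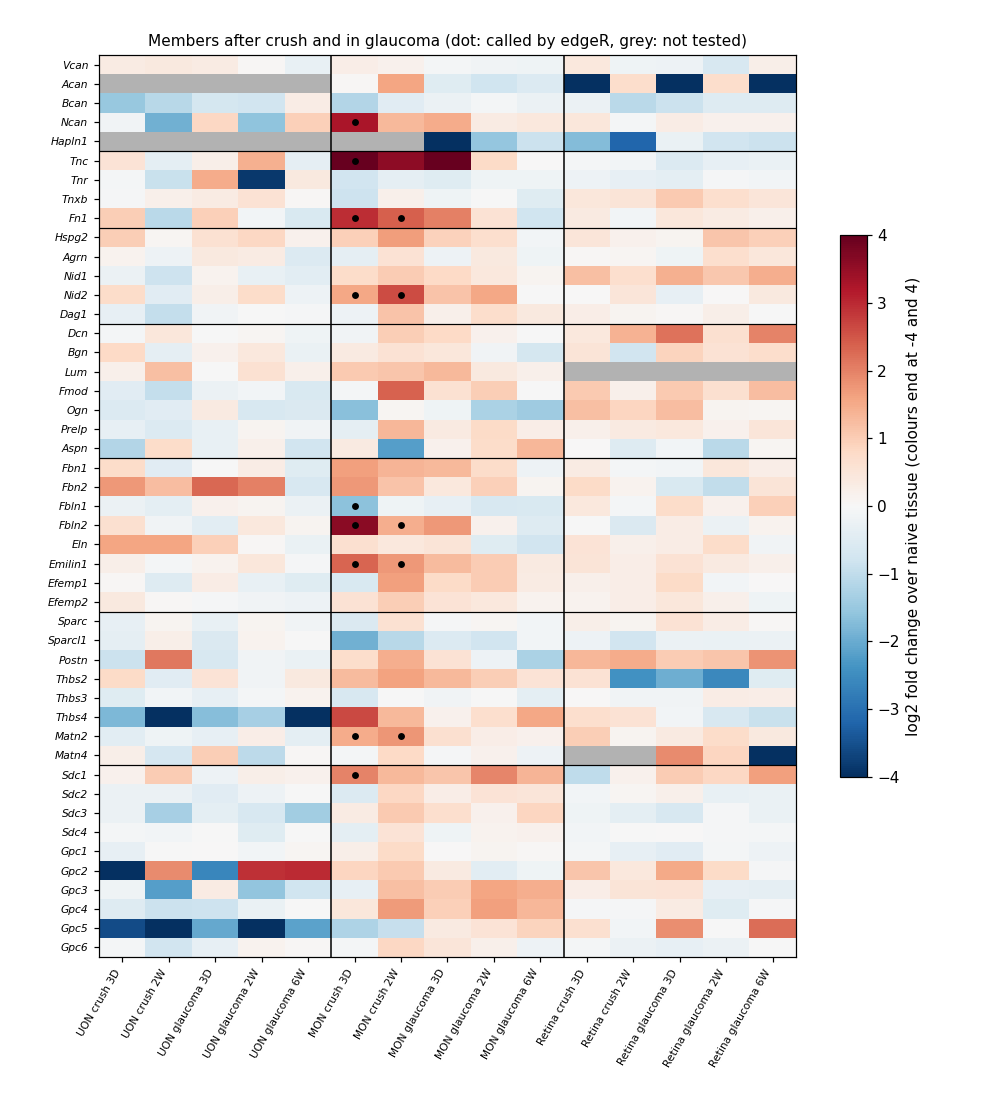
Log2 fold change of each member over naïve tissue in the 15 injury groups (colour, ending at -4 and 4; grey, not tested; dots, called by edgeR). The 14 dots, 9 at 3 D and 5 at 2 W, all lie in the MON crush columns, and colours in the glaucoma columns carry no dot. The darkest cells of Acan, Gpc2, Gpc5 and Thbs4 rest on counts near 0.

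In the glaucoma groups edgeR called no member in any tissue. In UON it called 0 of 45 at 3 D, 2 W and 6 W (0% of all genes at each time), with 1, 3 and 4 at an unadjusted p under 0.05 (3.87, 3.57 and 2.01% of all genes). DESeq2 called 0, 1 and 0 (0.608, 0.303 and 0.15% of all genes). That 1 was Tnr at 2 W, at 0.482 and 0.258 CPM against 6.99 and 4.06 in naïve UON (log2 fold change -3.87, SE 0.79, adjusted p = 0.00142 by DESeq2, adjusted p = 1 by edgeR). Oligodendrocyte markers in these pools summed to 2901 and 4131 CPM, against 8129 and 6319.6 in naïve UON. At 3 D the female pool was high in Tnr (25.9 and 6.84 CPM) and Matn4 (36.7 and 8.39), and the oligodendrocyte markers of the female and male pools summed to 16427 and 5129.6 CPM. Fibroblast markers also differed between pools, at 1812 and 4053 CPM at 3 D, 4018 and 2297 at 2 W and 3301 and 1268 at 6 W. Their part in the members was not tested.

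In MON after microbead injection edgeR called 0 of 47 at 3 D, 2 W and 6 W (0% of all genes at each time), with 9, 7 and 1 at an unadjusted p under 0.05 (8.07, 8.78 and 4.91% of all genes). DESeq2 called 5 at 3 D (2.3%), 3 at 2 W (2.65%) and 0 at 6 W (0.247%). The 5 at 3 D were Emilin1, Fn1, Nid2, Fbn1 and Fbln2. DESeq2 also called all 5 in MON at 3 D after crush, with Fbn1 at a log2 fold change of 1.61 (SE 0.43, adjusted p = 0.00263). By edgeR, Fbn1 was the 1 of them not called there (adjusted p = 0.0586). Both comparisons used the same naïve MON pools, so this overlap is not independent. In glaucoma at 2 W the 3 called by DESeq2 were Nid2, Emilin1 and Gpc4. Nid2 was at 25.4 and 21.5 CPM at 3 D, 37.4 and 24.3 at 2 W and 12.1 and 8.98 at 6 W, against 11.2 and 9.38 in naïve MON, so the first 2 times lay above naïve and the last overlapped it (log2 fold change 1.54, SE 0.26, adjusted p = 0.236 at 2 W by edgeR). Emilin1 had the same course, with 69.4 and 64.4 CPM at 3 D, 53.4 and 57.7 at 2 W and 37.8 and 33.6 at 6 W, except that at 6 W its pools were still above naïve.

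The 2 pools of MON at 3 D in glaucoma were unlike. The female pool was near the crush values for Tnc (111 and 16 CPM), Fbln2 (79.1 and 14.3) and Ncan (80.3 and 20.9), while the male pool was closer to naïve for all 3. The male pool was the higher for Dcn (98.2 and 477 CPM), Eln (25.3 and 126) and Efemp1 (11.1 and 60.1), with fibroblast markers at 325 and 1179 CPM. Sdc1 was high in the male pool of 2 W (7.78 and 56.6 CPM) and the female pool of 6 W (47.5 and 10.1). Those same 2 pools held surface epithelium markers at 433 and 1561 CPM, against 1.64 and 3.48 in their counterparts, and the part of that material in Sdc1 was not tested.

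In the retina of the glaucoma groups edgeR called 0 of 46 at 3 D, 2 W and 6 W (0.00429, 0 and 0.00858% of all genes), with 10, 1 and 3 at an unadjusted p under 0.05 (6.09, 6.29 and 5.67% of all genes). DESeq2 called 0 at each time (0.669, 0.442 and 0.526% of all genes). At 3 D, Dcn was at 2.4 and 1.41 CPM against 0.349 and 0.442 in naïve retina (log2 fold change 2.17, SE 0.57, adjusted p = 0.615), still far below nerve, and fibroblast markers in these pools summed to 7.19 and 13.8 CPM against 9.24 and 8.58. Sdc3 was at 60.4 and 69.5 CPM against 96.4 and 105 in naïve retina.

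The difference in response between MON and UON in glaucoma gave 0 of 47 by edgeR at 3 D, 2 W and 6 W (0% of all genes each), with 6, 4 and 2 at an unadjusted p under 0.05 (5.86, 6.18 and 3.1% of all genes). DESeq2 called 0, 2 and 0 (0.267, 0.603 and 0.156% of all genes), the 2 being Tnr and the scarce glypican Gpc5, which was at 0 in both UON pools of 2 W. With each pool of mice as a block, edgeR called 0 of 47 at each of the 3 times (0, 0.00387 and 0% of all genes), with 8, 6 and 2 at an unadjusted p under 0.05 (5.29, 6.15 and 2.53% of all genes). Crush was also set directly against glaucoma at matched times. In UON edgeR called 0 of 45 at 3 D (0% of all genes) and 2 W (0.0418%), with 1 and 6 at an unadjusted p under 0.05 (1.07 and 10.2%), and DESeq2 called 0 (0.0286%) and 2 (2.58%), Tnr and Postn. In MON edgeR called 0 of 47 at 3 D (0.0162%) and 2 W (0.0485%), with 11 and 9 at an unadjusted p under 0.05 (10.4 and 7.51%). DESeq2 called 4 at 3 D (3.34%), with Emilin1, Fbln2 and Ncan higher after crush and Sparcl1 lower, and 3 at 2 W (1.8%), with Fn1, Nid2 and Matn2 higher after crush. Fbln2 was 1.82 (SE 0.50, adjusted p = 0.0173) on the log2 scale by DESeq2 at 3 D and Matn2 1.45 (SE 0.34, adjusted p = 0.00295) at 2 W, and the edgeR adjusted p were 0.356 and 0.283.

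The other genes of the same biology were read from 5 lists. In naïve UON against MON, where 4.83% of all genes were called higher and 4.8% lower, 8 of 42 tested genes of glycosaminoglycan synthesis and sulfation were called higher and 3 lower, 2 of 18 hyaluronan genes higher and 1 lower, 16 of 40 other matrix glycoproteins higher and 1 lower, 6 of 22 other proteoglycans higher and 3 lower, and 3 of 11 proteoglycan receptors higher and 1 lower. Dse, the epimerase that turns chondroitin into dermatan sulfate of the kind decorin carries, had a log2 fold change of 3.03 (SE 0.29, adjusted p = 0.00194) in UON over MON, and the agrin receptor kinase Musk 3.07 (SE 0.52, adjusted p = 0.0126). Their medians were from 0.43 to 1.18, below the 1.61 of the members. After crush in MON the shares over all genes were 3.61% higher and 0.655% lower at 3 D and 2.13% higher and 0.595% lower at 2 W. At these times, 5 of 17 hyaluronan genes were called higher at 3 D and 3 of 17 at 2 W, among them the synthase Has2 at 4.96 (SE 0.56, adjusted p = 0.00988) at 3 D. The hyaluronan receptor Cd44 was 2.02 (SE 0.27, adjusted p = 0.0204) at 2 W. Of 40 other matrix glycoproteins 8 were called higher and 1 lower at each time, led by Spp1 (osteopontin, log2 fold change 8.83, SE 1.11, adjusted p = 0.0117 at 3 D) and Thbs1 (thrombospondin 1, log2 fold change 8.32, SE 0.87, adjusted p = 0.0077). Dse was also called after crush in MON, at 2.11 (SE 0.37, adjusted p = 0.0256) at 3 D and 2.17 (SE 0.37, adjusted p = 0.0353) at 2 W, with 2 of 40 synthesis genes higher at each time and 0 and 1 lower, near the shares over all genes. Of 21 other proteoglycans 2 were higher at each time, Esm1 and Nrp1, and no proteoglycan receptor was called. In the retina at 2 W after crush Hs6st1, a heparan sulfate sulfotransferase (log2 fold change -2.51, SE 0.26, adjusted p = 0.0228), and Nell2 (log2 fold change -2.77, SE 0.16, adjusted p = 0.00381) were called lower. Over all genes 0.238% were called lower there. The response to crush at 3 D differed between MON and UON for Esm1, an endothelial proteoglycan (log2 fold change 4.37, SE 0.49, adjusted p = 0.0253). In UON after crush and in the glaucoma groups of all 3 tissues these lists gave no call by edgeR. Over all genes at most 0.0281% were called in UON after crush and at most 0.00858% in a glaucoma group.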

How the data were processed

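Libraries were made from pools of mice of 1 sex, and the authors aligned the reads with HISAT2 2.2.1 to GRCm38 and assembled expression with StringTie 1.3.0 against GENCODE M25. The deposited gene table and transcript table hold estimated counts, which StringTie's script derives from coverage; the read strand setting was not given in the sources used here. The deposited per-sample tables hold FPKM and TPM by the authors. Estimated counts were rounded and genes with low counts removed with filterByExpr. Each comparison was fitted over all genes in edgeR 4.0.16 (R 4.3.3, limma 3.58.1) with TMM scaling, the quasi-likelihood test and sex as a term, and p-values were adjusted by Benjamini-Hochberg over all genes tested in that fit. The regional fit held the naïve libraries of the 3 tissues, injury fits the libraries of 1 tissue and injury with naïve, and interaction fits UON and MON together. Since all regions came from each mouse, the sex term also paired the tissues in the regional fit, and an alternative chosen after seeing the data put each pool of mice as a block in the interaction fits. Calls needed an adjusted p under 0.05 and a change beyond 1 on the log2 scale. The SE of an edgeR value was derived as the absolute log2 fold change over the square root of the F statistic of its test. DESeq2 1.42.0, other scaling, no filter, no sex term, all 36 libraries in 1 fit and leaving out each pool were alternatives. CPM were computed from the estimated counts with TMM scaling. Genes named in the text are the members, and outside them the genes of each list with the largest called changes. The members and lists were chosen with earlier results of these data known. Coordinates and junction sequences are from GRCm38 with GENCODE M21; all 47 genes were matched by identifier.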

Additional observations from a re-analysis of the deposited data

Results flagged for a closer look

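Sdc1 had opposite differences from naïve after crush at 3 D in retina and MON. In retina the pools were at 0.0989 and 0.245 CPM (female, then male) against 0.349 and 0.287 in naïve retina (log2 fold change -1.01, not called by edgeR), and in MON at 28 and 47.5 CPM against 12.1 and 7.64 in naïve MON, where it was called. Both retina pools lay below both naïve pools and both MON pools above theirs, which is why it is listed. The difference between the tissues was not tested, and the retina values rest on 4 and 12 estimated counts against 18 and 13.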

How the results depend on the processing

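None of the called log2 fold changes reversed under any alternative run. DESeq2 kept all 115 calls of the members and DESeq2 size factors kept all 115, as did the fit with no filter on low counts, and all 36 libraries in 1 fit kept 94; the 21 lost were 9 in UON over MON, 1 in UON over retina, 4 in MON over retina, 4 in MON crush 3 D and 3 in MON crush 2 W. Without the replicate block (no sex term) 114 of 115 remained, with Ogn in UON over MON lost, and 4 were gained (Hapln1 in UON over retina, Fbn1 in MON crush 3 D, Hspg2 and Efemp1 in MON crush 2 W). With a block by pool of mice, chosen after seeing the data, the difference in response to crush at 2 W had 2 members called, and the other 4 differences in response had 0. With DESeq2 the members called were 1 for UON crush 3 D, 3 for UON crush 2 W, 16 for MON crush 2 W, 1 for UON glaucoma 2 W, 5 for MON glaucoma 3 D and 3 for MON glaucoma 2 W. They were 3, 8 and 2 for the difference in response at crush 3 D, crush 2 W and glaucoma 2 W, and 2, 4 and 3 for crush over glaucoma in UON at 2 W, MON at 3 D and MON at 2 W. With no filter they were 14 for MON crush 2 W, 5 and 12 for the difference in response to crush at 3 D and 2 W, and 4 and 2 for crush over glaucoma in MON at 3 D and 2 W. With all 36 libraries in 1 fit they were 2 for MON crush 2 W, 1 for UON glaucoma 2 W, 1 and 3 for the difference in response to crush, and 1 for crush over glaucoma in UON at 2 W. Leaving out 1 pool at a time gave 0 to 15 for MON crush 3 D, 0 to 15 for MON crush 2 W, 0 to 1 for MON glaucoma 2 W, 0 to 9 for the difference in response to crush at 2 W, 0 to 2 for crush over glaucoma in UON at 2 W, and 0 to 3 and 0 to 1 for it in MON at 3 D and 2 W. The cause of these shifts was not tested. No share over all genes stands beside the counts with no filter, with all 36 libraries in 1 fit or with 1 pool left out. Those counts are therefore not results about the members. With no filter the edgeR adjusted p could be far smaller, as for Tnc in MON crush 3 D (2.23e-46 against 0.015 with the filter). The 10 highest members of each naïve tissue were the same by TPM as by FPKM (10 of 10). The low counts of Acan, Hapln1, Gpc2 and Gpc5, and of Lum and Matn4 in retina, limit what can be said of them.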
